A study of Mus musculus with 4 samples.

Results

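A set of 10 genes encoding transcription factors of naive pluripotency were followed through the KDM5C ChIP-Seq peaks of mouse epiblast-like cells (EpiLCs). They are 10 of the 22367 protein-coding genes annotated on the assembled chromosomes of mm9, and were taken by name as Pou5f1, Nanog, Sox2, Klf2, Klf4, Esrrb, Tfcp2l1, Zfp42, Tbx3 and Prdm14. A promoter peak was a peak whose midpoint lay within 1 kb of any annotated transcription start site (TSS) of the gene. A locus peak was any peak in the gene body or within 20 kb of it.

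The cells were male XΔTsixY cells, and both genotypes carried the truncated copy of Tsix, the antisense repressor of Xist, on their only X chromosome. Wild-type (WT) cells had an intact Kdm5c gene, and knockout (KO) cells carried a Kdm5c allele lacking the exons for the JmjC demethylase domain, from which little protein is made. Cells were sampled at day 2, with 1 immunoprecipitated and 1 input sample for each genotype in the labels, 4 samples in all. The labels give the strain as C57BL/6J, whereas the study's methods name another strain and, for the floxed Kdm5c allele, a mixed background. The growth protocol in the labels ends with 48 h in FGF2 and Activin A, and the study's methods add a further culture in which both factors were withdrawn, with ChIP at day 2 of that step. Each genotype has 1 peak list, made from replicates for WT and from a single sample for KO as the peak names and the study's methods state. Other sources differ, since the series' design text speaks of technical duplicates and a supplementary count at Xist lists more than 1 KO replicate. No value below has a replicate error and no test was made. The study states a minimum sequencing depth for its samples, but the lists do not give the depth of each library. Peak lists hold no expression, so the labelled cell type was not checked against markers.

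KDM5C, also named SMCX, removes methyl groups from di- and trimethylated lysine 4 of histone H3, marks that are found at active promoters. Naive pluripotency, the state of the pre-implantation epiblast and of embryonic stem cells grown with kinase inhibitors and LIF, is held by a network of transcription factors that bind at each other's genes. As cells pass to the formative and primed state that EpiLCs model, Klf2, Klf4, Esrrb, Tfcp2l1, Zfp42, Tbx3, Prdm14 and, for a time, Nanog are lowered, whereas Pou5f1 and Sox2 stay expressed. The naive list thus joins core factors, needed in both states, with factors of the naive state alone. By the study's methods the cells sampled here had gone 2 days beyond the EpiLC stage, and their expression of these genes was not examined.

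Of the 10 genes, 5 carried a WT promoter peak: Sox2, Klf4, Esrrb, Tfcp2l1 and Tbx3. Over all protein-coding genes the share with such a peak was 24%. Pou5f1 had no promoter peak but had a locus peak upstream of it, so 6 of the 10 genes had a WT locus peak, beside 41.2% of all protein-coding genes. Nanog, Klf2, Zfp42 and Prdm14 had none. The 6 loci held 11 of the 6916 WT peaks on assembled chromosomes, 7 of them promoter peaks and 4 not. In the KO list, which held 44 such peaks, 0 lay at any of the 10 loci, and 0.286% of protein-coding genes had a KO locus peak, so a count of 0 among 10 genes is no result about these genes.

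The sequences below show 151 bases of mm9 around 4 of the summits, the positions of highest signal within a peak, and, for comparison, the 151 bases before the first TSS of a pair of genes without a peak. They were chosen because they cover the highest-scoring peak of each of Pou5f1, Sox2, Klf4 and Esrrb, a peakless gene with a CpG-rich promoter (Klf2) and one with a CpG-poor promoter (Nanog). All are written 5′ to 3′ on the strand of the gene, with each CpG in capitals. The Pou5f1 window is chr17:35641033-35641183 on the plus strand, intergenic, and the Sox2 window is chr3:34562989-34563139 on the plus strand, in an intron of Sox2ot. The Klf4 window is chr4:55545768-55545918 on the minus strand, intergenic, and the Esrrb window is chr12:87811124-87811274 on the plus strand, with its summit in coding sequence. The Klf2 window is chr8:74842781-74842931 on the plus strand, and the Nanog window is chr6:122657356-122657506 on the plus strand.
Pou5f1 upstream peak: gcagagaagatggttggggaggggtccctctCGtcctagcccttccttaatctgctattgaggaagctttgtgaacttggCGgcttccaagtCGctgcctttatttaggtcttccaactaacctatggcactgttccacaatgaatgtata
Sox2 downstream peak: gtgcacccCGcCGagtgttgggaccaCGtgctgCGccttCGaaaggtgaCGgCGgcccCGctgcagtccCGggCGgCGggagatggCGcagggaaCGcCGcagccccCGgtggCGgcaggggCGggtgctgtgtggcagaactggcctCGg
Klf4 promoter peak: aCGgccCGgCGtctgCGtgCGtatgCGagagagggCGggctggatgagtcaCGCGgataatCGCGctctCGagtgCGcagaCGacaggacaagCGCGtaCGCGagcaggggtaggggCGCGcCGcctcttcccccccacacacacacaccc
Esrrb internal peak: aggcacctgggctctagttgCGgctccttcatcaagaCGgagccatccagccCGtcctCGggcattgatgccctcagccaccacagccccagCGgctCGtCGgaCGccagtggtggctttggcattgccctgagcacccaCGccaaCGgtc
Klf2 upstream of TSS: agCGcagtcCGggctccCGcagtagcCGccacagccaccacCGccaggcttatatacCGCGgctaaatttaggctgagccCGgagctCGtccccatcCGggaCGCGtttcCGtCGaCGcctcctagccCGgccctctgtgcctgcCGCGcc
Nanog upstream of TSS: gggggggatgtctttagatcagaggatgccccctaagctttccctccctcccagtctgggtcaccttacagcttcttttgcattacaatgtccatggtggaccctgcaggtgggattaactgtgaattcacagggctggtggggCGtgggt

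The windows differ plainly in their CpG. The Pou5f1 window holds 3 CpG dinucleotides and the Nanog window 1. The Klf2 window, which has no peak, holds 18, as many as the Sox2 window, and the Klf4 and Esrrb windows hold 21 and 10.

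**Figure D1:**
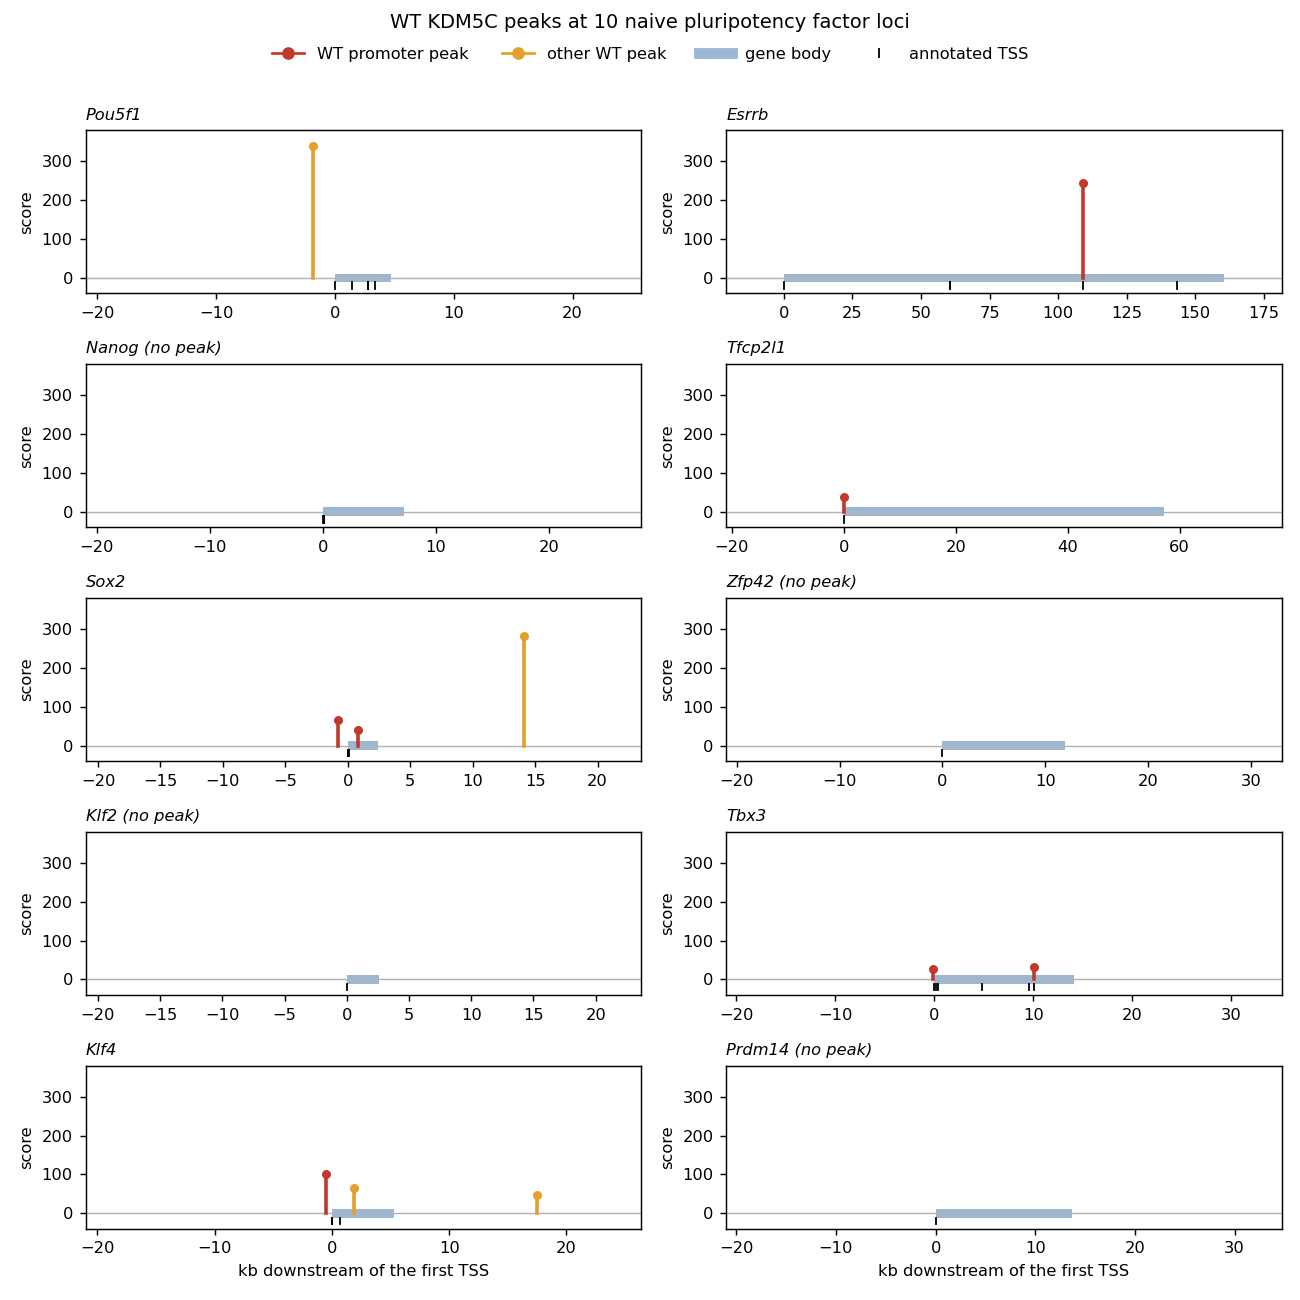
Each panel shows the locus of 1 gene, with the position in kb downstream of its first TSS on the horizontal axis and the score of each WT KDM5C peak, 10 times the −log10 of its q-value, on the vertical axis. Stems stand at peak summits, red for promoter peaks and orange for others, the bar is the gene body and ticks mark annotated TSSs; 6 panels hold peaks and 4 hold none.

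The loci of Pou5f1 and Sox2 held the 2 highest-scoring of the 11 peaks, both outside the promoter window. At Sox2 this depends on the settings. With a flank of 5 kb, or with peaks nearest to a TSS of the gene itself, 9 peaks were counted and the highest at Sox2 scored 66. Pou5f1 encodes OCT4, the POU-domain factor without which pluripotent cells are lost. Its gene lies at chr17:35642982-35647721 on the plus strand, with 7 annotated TSSs. Its single WT peak, at chr17:35640505-35641538, was intergenic, scored 339 and was enriched 7.48-fold over input. It ranked 638 of the 6916 WT peaks by score, above 90.8% of them. The summit lay 1874 bp upstream of the first TSS and the midpoint 1960.5 bp from it, outside the 1 kb promoter window. Pou5f1 was also the gene with the nearest TSS, since the neighbours Tcf19 and Cchcr1 begin 12384 and 12937 bp from the summit and had 0 promoter peaks each. The region upstream of Pou5f1 is known for a distal enhancer used in naive cells and a proximal enhancer used in primed cells. Whether the peak covers either of them was not examined, as no annotation used here marks them.

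The Pou5f1 peak was the only 1 of the 11 that was not CpG-rich, the term used here for sequence with a ratio of observed to expected CpG of at least 0.6 and a GC content of at least 50%. Its ratio was 0.168 over 1034 bp, with 11 CpG dinucleotides and a GC content of 50.7%, and 1.26% of all WT peaks had a lower ratio. Of the WT peaks, 81.6% were CpG-rich. The share was lower away from start sites: 23.8% of WT peaks had a summit 1 kb or more from any TSS, as here. Of those, 53.8% were CpG-rich. Among all 1275 WT peaks that were not CpG-rich, at any distance from a TSS, the median score was 59, and 97.3% scored below the Pou5f1 peak. Among WT peaks at or above the 90th percentile of score, 94.2% were CpG-rich. The Pou5f1 peak thus combined a high score with CpG-poor sequence, a pairing held by few WT peaks.

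Sox2, the HMG-box partner of OCT4, lies at chr3:34548927-34551383 on the plus strand with 3 TSSs, inside the longer noncoding gene Sox2ot. It had 3 WT peaks. The upstream peak, at chr3:34547730-34548407, scored 66 and was enriched 3.07-fold over input, with its summit 786 bp before the first TSS in an intron of Sox2ot. The peak at chr3:34549530-34549877 scored 39, at 3.01-fold over input, with its summit 834 bp after the first TSS in the Sox2 coding sequence. Both were promoter peaks, so Sox2 was flanked by a peak on each side of its first TSS within 1 kb, which held for 113 protein-coding genes, or 2.11% of those with a promoter peak, and for 1 of the 10 genes. The midpoint of the upstream peak was 858.5 bp from the TSS, the farthest of the 7 promoter peaks.

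The downstream Sox2 peak, at chr3:34562709-34563346, scored 282 with 6.97-fold enrichment, higher than 88.1% of WT peaks by score. Its summit lay 14.1 kb downstream of the first TSS, in an intron of Sox2ot, and the nearest TSS was one of Sox2ot at 1101 bp. Position alone does not tell whether this peak belongs with Sox2 or with Sox2ot. A score outside the promoter above those inside it was common: of 1522 protein-coding genes with a promoter peak and another locus peak, 53.0% had their highest score outside the promoter.

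The Krüppel-like factors Klf2 and Klf4, zinc finger factors that can stand in for each other in keeping the naive state, differed in their peaks. Klf4 lies at chr4:55540013-55545347 on the minus strand with 4 TSSs and had 3 WT peaks. The promoter peak, at chr4:55545638-55546197, scored 101 and was enriched 4.18-fold over input, with its summit 496 bp before the first TSS. The peak at chr4:55543329-55543656 scored 64, at 3.52-fold over input. It lay in the coding sequence with its midpoint 1149.5 bp from the nearest Klf4 TSS, the closest of the 4 peaks outside the promoter window. The peak at chr4:55527699-55528026 scored 48 with 3.19-fold enrichment, and lay 12.0 kb beyond the end of the gene in intergenic sequence. Its nearest TSS was that of the pseudogene Gm12507, 6683 bp away. At Klf4 the promoter peak was thus the strongest of the locus, unlike at Sox2.

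Klf2, at chr8:74842932-74845555 on the plus strand, had no WT peak in its body or within 20 kb, and the nearest was 99.6 kb away. Its single TSS was CpG-rich, with a GC content of 64.8% and a CpG ratio of 0.71, and it was the only gene of the 10 with a CpG-rich promoter and no promoter peak.

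Esrrb encodes an orphan nuclear receptor and Tfcp2l1 a CP2-family factor, both direct supports of self-renewal in naive cells. Esrrb is the longest of the 10 genes, at chr12:87702067-87862578 on the plus strand with 5 TSSs. Its single WT peak, at chr12:87810954-87811491, scored 244 and was enriched 5.98-fold over input, the highest score among the 7 promoter peaks and above 85.2% of WT peaks. The summit lay 132 bp downstream of an internal TSS and 109 kb from the first TSS, in coding sequence. At the first TSS of Esrrb, where the CpG ratio was 0.28, there was no peak, and a pair of further internal TSSs with CpG ratios of 0.66 and 0.73 also had none. The Esrrb call therefore rests on 1 internal annotated TSS.

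Tfcp2l1, annotated in GENCODE M1 under its older name Tcfcp2l1, lies at chr1:120524522-120581744 on the plus strand with 1 TSS. Its WT peak, at chr1:120524460-120524788, scored 37, at 3.17-fold over input, below the median of all WT peaks on both measures, and its summit was 9 bp downstream of the TSS in the UTR. Of the 7 promoter peaks this was the only one at a gene whose promoter was not CpG-rich by the limits used, where the CpG ratio was 0.58 in the window around the TSS. The peak itself was CpG-rich, with a ratio of 0.73.

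Tbx3 encodes a T-box factor that also acts in limb and heart development. It lies at chr5:120120678-120134733 on the plus strand with 6 TSSs and had 2 WT peaks, both promoter peaks and both weak. The first, at chr5:120120055-120120694, scored 28 with 2.51-fold enrichment, the lowest of the 11 on both measures, with its summit 119 bp before the first TSS in an intron of Gm2301. The second, at chr5:120130488-120130956, scored 31 and was enriched 3.06-fold over input. Its summit was 3 bp before an internal TSS in coding sequence, 10.1 kb from the first TSS. Lower scores were held by 8.02% and 10.4% of WT peaks.

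Nanog, a homeodomain factor of the core network, Zfp42, the zinc finger marker gene also called Rex1, and Prdm14, a PR-domain factor that acts in naive cells and in germ cells, had no locus peak. Nanog lies at chr6:122657507-122664651 on the plus strand, Zfp42 at chr8:44380422-44392363 on the minus strand and Prdm14 at chr1:13103538-13117244 on the minus strand. Their first TSSs had CpG ratios of 0.30, 0.49 and 0.50, and none was CpG-rich. The nearest WT peak to Nanog was 49.5 kb away, at chr6:122714185-122715236, and scored 279 at 5.86-fold over input. The nearest peak to Prdm14 was 122 kb away. Zfp42 stood 1756 kb from the nearest WT peak, and 1.91% of protein-coding genes were farther from one. The median distance over protein-coding genes was 38.1 kb.

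**Figure D2:**
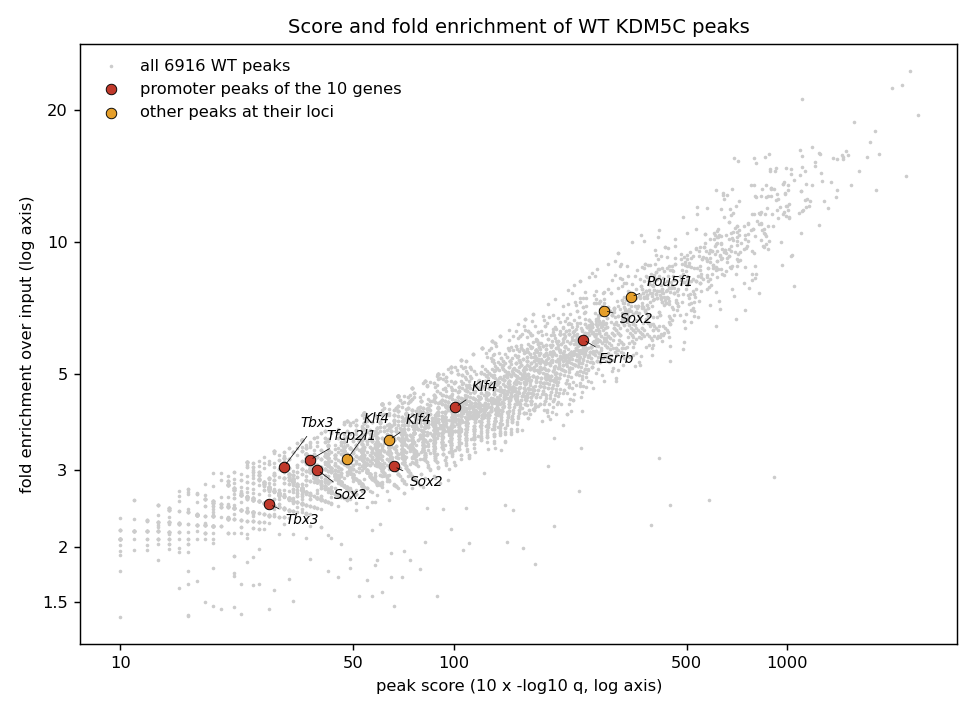
Score (10 times the −log10 of the q-value, log axis) against fold enrichment over input (log axis) for the 6916 WT peaks on assembled chromosomes, in grey, with the 7 promoter peaks of the 10 genes in red and the 4 other peaks at their loci in orange. Pou5f1, the downstream Sox2 peak and Esrrb sit in the upper part, and both Tbx3 peaks sit near the lower left end.

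The promoter peaks of the naive factors were mostly weak. In order of score they were Esrrb at 244, Klf4 at 101, Sox2 at 66 and 39, Tfcp2l1 at 37 and Tbx3 at 31 and 28. The median score was 39 with a median fold enrichment of 3.07, beside a median score of 87 and a median fold enrichment of 3.73 over the 5063 promoter peaks of protein-coding genes. Of the 7, 2 were above the median score of all WT peaks, which was 82, so that a score minimum at that median left promoter peaks at Klf4 and Esrrb alone. A promoter window of 500 bp left them at Esrrb, Tfcp2l1 and Tbx3. The 4 peaks outside promoters had scores of 339, 282, 64 and 48, with a median of 173. Over all 11 peaks the median was 64, and 4 were above the WT median. Neighbours in this order have no error, so whether any pair of scores differs beyond replicate spread cannot be said.

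The promoter peaks were then counted by CpG content. Of the 10 genes, 5 had a CpG-rich promoter at any TSS (Sox2, Klf2, Klf4, Esrrb and Tbx3), and 4 of these had a promoter peak, beside 43.5% of all protein-coding genes with a CpG-rich promoter. Of the other 5 (Pou5f1, Nanog, Tfcp2l1, Zfp42 and Prdm14), 1 had a promoter peak, beside 5.2% of all protein-coding genes without a CpG-rich promoter. That gene, Tfcp2l1, lay just under the limit. Counted by start site, 12 of the 16 CpG-rich TSSs had a WT peak within 1 kb, as had 1 of the 17 others, but sites of a gene share peaks and are not independent.

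**Figure D3:**
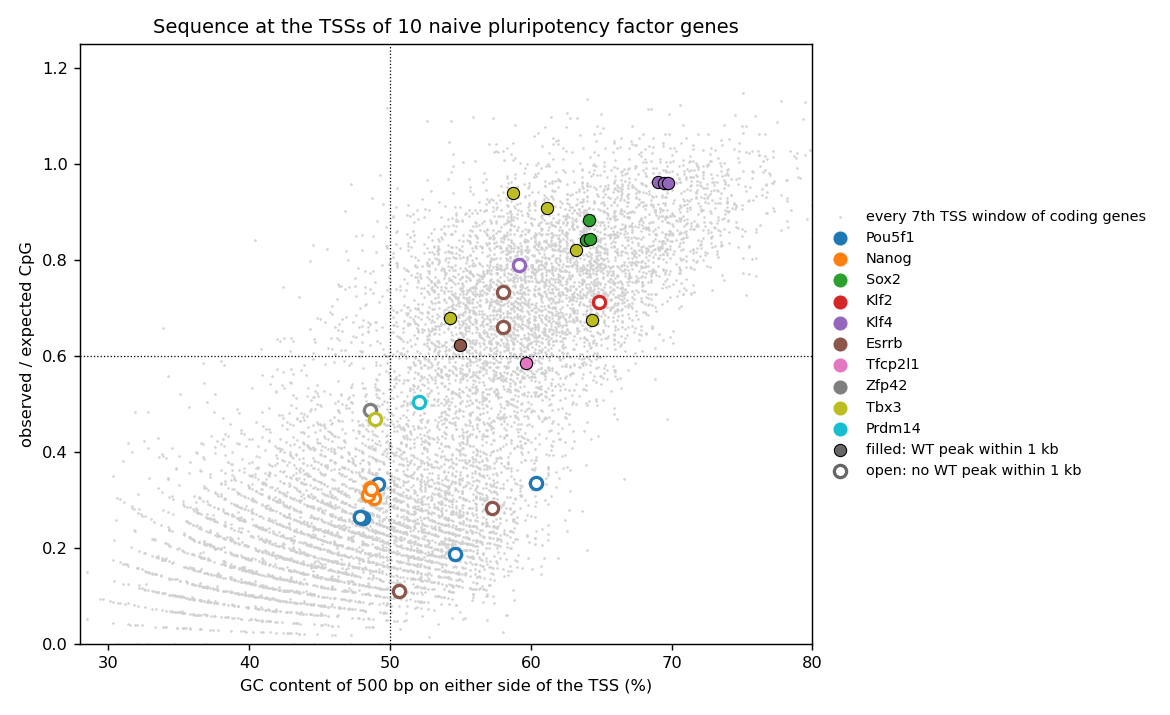
GC content (%) against the ratio of observed to expected CpG in the 500 bp on either side of each of the 33 annotated TSSs of the 10 genes, coloured by gene, filled where a WT peak midpoint lay within 1 kb and open where none did. Grey points are 1 in 7 TSS windows of all protein-coding genes and dotted lines mark the limits for CpG-rich sequence, 0.6 and 50%; filled points lie in the upper right quadrant except for Tfcp2l1.

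The counts were also split by gene length and by number of start sites. By definition a longer gene has a longer searched locus, and more TSSs can add promoter windows, whereas length alone adds none. Whether either accounts for the shares was not tested. Of the 8 genes of at most 20 kb, 3 had a promoter peak and 4 a locus peak, beside 18.0% and 36.2% of protein-coding genes of that length. Both longer genes, Esrrb and Tfcp2l1, had a promoter peak, beside 31.7% of genes over 20 kb. Of the 4 genes with 1 TSS, 1 had a promoter peak, beside 16.2%, and of the 6 with more, 4 did, beside 30.0%. Sox2, Klf4 and Tbx3 had at least 2 locus peaks, as had 11.3% of protein-coding genes, and Sox2 and Klf4 had 3, a number reached by 2.62%. With 10 genes, these shares describe the list and single out none of them.

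Sequence motifs within 150 bp of the summits were searched on both strands. The E-box CACGTG was found at 2 of the 11 peaks, the upstream and the downstream Sox2 peaks, beside 18.9% of the 5063 promoter peaks of protein-coding genes. The E2F core TCCCGC was found at 6 (all 3 Sox2 peaks, the Klf4 peak beyond the gene, Esrrb and the first Tbx3 peak), beside 45.7%. The GC box GGGCGG was found at 6 (the downstream Sox2 peak, all 3 Klf4 peaks and both Tbx3 peaks), beside 59.5%. The octamer ATTTGCAT, the kind of site OCT4 binds, was found at 0, beside 0.316%. None of these letters was found at the Pou5f1 and Tfcp2l1 summits. In the same 301 bp the median number of CpG dinucleotides at promoter peaks was 29, with quartiles of 22 and 35. The Pou5f1 summit had 5 and the upstream Sox2 summit 7, and fewer were found in 0.296% and 0.751% of the promoter windows. Apart from these, the other 9 summits had between 23 and 33. Of the 11 peaks, 4 are not promoter peaks: Pou5f1, the downstream Sox2 peak and the Klf4 peaks in and beyond the gene. Promoter windows are an unlike comparison for them, in the motif shares as in the CpG counts. A motif match is a description of the sequence and shows no binding of a factor.

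For comparison, a list of 22 other pluripotency genes and a list of 18 genes of the primed epiblast were examined in the same way. Of the other pluripotency genes 5 had a WT promoter peak (22.7%) and 10 a locus peak (45.5%). The highest promoter scores were those of Lin28b at 709 with a fold enrichment of 10.9, Klf5 at 105 and Tcl1 at 59. The 12 without a locus peak were Nr0b1, Nr5a2, Sall4, Lifr, Tcf7l1, Dppa2, Dppa3, Dppa4, Dppa5a, Lin28a, Zfp281 and Rif1. Of the primed epiblast genes 9 had a promoter peak (50%) and 11 a locus peak (61.1%), led by Lefty2 at 260 with a fold enrichment of 6.39, Cdh2 at 177 and Sox11 at 118. Those without a locus peak included Fgf5, Dnmt3b, Sox3, Eomes, T and Nodal.

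The naive factors, with 5 of 10 and 6 of 10, had promoter peaks at 50% and locus peaks at 60%, beside 50% and 61.1% in the primed list. The median promoter score was 39 for the naive factors, 41 for the other pluripotency genes and 73 for the primed genes, all under the median of 87 over protein-coding genes. The lists differed in CpG content too. Of the other pluripotency genes 10 of 22 had a CpG-rich promoter and 4 of those had a peak, and of the primed genes 14 of 18 did and 7 of those had a peak. No list had a KO locus peak. Differences between the lists were not tested, as each rests on 1 WT list.

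**Figure D4:**
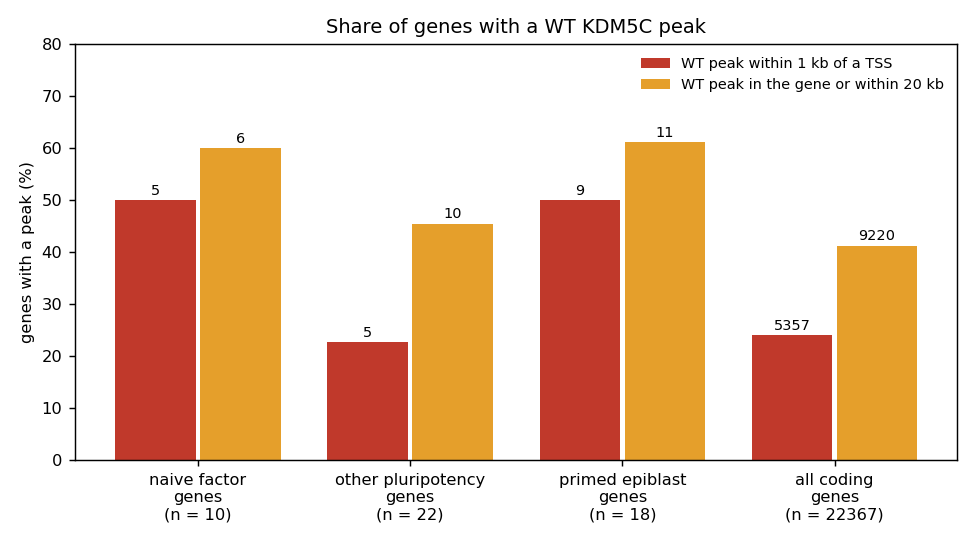
Percent of genes with a WT KDM5C peak within 1 kb of a TSS (red) and in the gene or within 20 kb of it (orange) in the 10 naive factor genes, 22 other pluripotency genes, 18 primed epiblast genes and all 22367 protein-coding genes; numbers above bars are gene counts. Promoter shares are 50%, 22.7%, 50% and 24% from left to right.

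The KO list served as the control for the antibody. Its nearest peak to any of the 10 genes was 720 kb from Pou5f1, and the farthest nearest peak was 84834 kb from Klf4. Chromosome 1, which holds Tfcp2l1 and Prdm14, had no KO peak. None of the 11 WT peaks overlapped a KO peak. With 44 KO peaks beside 6916 WT peaks, few WT peaks anywhere could overlap one, so this is no result about these peaks. By their peak names WT peaks were called on replicates and KO peaks on 1 sample, though the sources differ on this, and the lists hold no read counts, so the absence of KO peaks and a lower power to call them cannot be told apart at these loci.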

How the data were processed

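KDM5C ChIP-Seq peaks of WT and KO cells were taken from the deposited narrowPeak lists. The authors aligned 50 bp single-end reads to mm9 with Bowtie, discarded reads without a unique position and ran MACS2 2.1.0.20140616 against input. The sources differ on the Bowtie version, given as 1.1.2 in the submitters' processing notes. The fold enrichment over input (a ratio), the score and the −log10 of the q-value are the authors' deposited values. The score was checked to be 10 times the deposited −log10 q with decimals dropped in all 6933 WT and 47 KO peaks, and the largest q-values were 0.0977 and 0.0948. By the peak names and the study's methods, WT peaks were called on replicates and KO peaks on 1 sample, though other sources differ, which can give the WT list more power, and unique mapping loses repeated sequence. Replicates and the depth of each library are not in the lists, though the study states a minimum depth, so no error is given, and fold enrichments were not compared between genotypes.

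Peaks on assembled chromosomes (6916 WT, 44 KO) were set against GENCODE M1 on NCBIM37, the assembly of mm9. Coordinates count from 1. CpG content was read over 500 bp on either side of each TSS and over each peak. Peak assignment was tested on simulated data, where 100 of 100 peaks planted inside promoter windows and 200 of 200 planted at loci were recovered. Python 3.11.15, numpy 2.4.6 and pandas 2.3.3 were used. Alternatives covered the promoter window, flank, reference point, transcripts, score minimum, merging and TSS assignment. All 10 genes are named with every locus peak. From the comparison lists, the 3 genes with the highest promoter scores and those without a locus peak are named, except 1 gene that is not reported here by name, as are genes whose TSS is nearest to a locus peak. The neighbours Tcf19 and Cchcr1 were named after their values were seen. The genes and lists were chosen with earlier results of these data known. 9 of the 10 genes were found under their own symbol and Tfcp2l1 under a RefSeq synonym.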

Additional observations from a re-analysis of the deposited data

How the results depend on the processing

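A narrower promoter window of 500 bp left 3 of the 10 genes with a WT promoter peak, beside 21.8% of protein-coding genes, and a median score of 34. A window of 5 kb gave 6 of the 10 genes, beside 27.0% of protein-coding genes, and a median of 64. A flank of 5 kb gave a locus peak at 6 of the 10 genes, beside 31.0% of protein-coding genes. A flank of 50 kb gave one at 7, with Nanog added, beside 54.3%. Counting only peaks nearest to a TSS of the gene itself gave 6, beside 24.0%. With scores at or above the WT median, 2 of the 10 genes kept a promoter peak and 4 a locus peak, beside 13.0% and 24.7% of protein-coding genes. At the loci of the 10 genes 4 WT peaks remained, and the median score of their promoter peaks was 172.5. Of the comparison lists, 2 other pluripotency and 5 primed genes kept a promoter peak. At or above the 90th percentile the counts were 0 genes with a promoter peak, 1 with a locus peak (Pou5f1) and 1 peak, beside 2.79% and 5.82% of protein-coding genes, with 1 other pluripotency and 0 primed genes, and no median could be given. The promoter peaks of the 10 genes thus rest mostly on low scores. Of 67 alternative values, 45 stayed close to the main value and 22 moved. Close means within 1.5 times for a count, inside the exact 95% binomial interval of the main value for a percentage, and equal for the median score. Such values have no direction, so none could reverse. The 45 include KO counts of 0 that stayed at 0, some of which could not have changed under a stricter setting. A CpG ratio limit of 0.5, added after seeing the data, put Tfcp2l1 and Prdm14 among the CpG-rich genes, with 5 of 7 carrying a promoter peak beside 41.0% of protein-coding genes, and a limit of 0.7 gave 4 of 5 beside 46.6%. No paired analysis was possible because no result comes from a test, with a single list for each genotype. The lists do not give the depth of each library, and a locus without a peak may hold signal too weak to be called.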

Other observations

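In the comparison lists the highest-scoring locus peak lay outside the promoter window at several genes that have both kinds of peak, as it did at Sox2. The pattern is common, as it held for 53.0% of the 1522 protein-coding genes with both kinds. Genes named here were chosen after their values were seen. A peak shared by the adjacent genes Zic2 and Zic5 had a score of 435, beside a highest promoter score of 115 at Zic2. Lef1, the WNT pathway factor, had a locus peak with a score of 324 and a highest promoter score of 75, and Lefty1, an inhibitor of Nodal signalling, had 223 and 84. A further WT peak lay 46.6 kb from Klf4, at chr4:55493093-55493453, with a score of 110, outside the 20 kb flank.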
